A study of Mus musculus with 6 samples.

Results

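The 37 mitochondrially encoded genes were described here in bulk RNA-seq of sorted MHCIIhi cells from the muscularis externa (ME), the muscle layer of the small bowel wall. They were taken as every gene of the deposited table whose symbol starts with mt-, which gave 37 of 26110 listed genes. These are 13 mRNAs, 2 rRNAs and 22 tRNAs, and all 37 matched by symbol to the 37 genes that GENCODE M21 places on the mouse mitochondrial chromosome. The groups were 3 libraries of MHCIIhiCX3CR1- cells and 3 libraries of MHCIIhiCX3CR1+ cells. Both came from naive, untreated CX3CR1GFP/+ mice (CX3CR1+/GFP in the labels) on a C57BL/6 background, in which 1 Cx3cr1 allele is replaced by GFP, so that GFP marks the cells that use the Cx3cr1 promoter. The methods name female mice, and their age is not given in the sources used here. For the sort, ME tissue of 6 mice was combined in each group, and whether each library had a pool of its own is not stated, so the p-values below measure only the spread between libraries. The labels call the cells dendritic cells and the paper calls them macrophages. The study compared both populations to describe how their transcriptomes differ. Replicates 1, 2 and 3 are the libraries of each population in the order of their accessions.

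Cx3cr1, the gene of the sort, was lower in every CX3CR1- library, with 23.2, 18.9 and 28.5 normalized units against 371, 380 and 347 in CX3CR1+ (log2 fold change -3.92, limma adjusted p = 7.72e-06). The libraries held approximately 5346381 to 17616761 reads assigned to genes, with 6517536 to 11927366 in CX3CR1- and overlapping depths between groups. The normalized value of 3 reads lay between 1.39 and 5.36. Values are the authors' counts per gene after scaling between libraries, written here as normalized values. All 8 macrophage markers were lower and all 8 dendritic cell markers higher in CX3CR1- libraries, and markers of epithelium and other tissue cells differed as well (values at the end of the results), so neither cell type name is used for the populations. In bulk libraries a lower number of cells of a type and less RNA per cell cannot be told apart.

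Mitochondria carry a small circular genome of their own, separate from the chromosomes in the nucleus. Its mRNAs encode core subunits of respiratory complexes I, III, IV and V, while the other subunits are made from nuclear genes and imported. Its rRNAs and tRNAs serve the mitochondrial ribosome that translates these mRNAs. Both strands are transcribed as long precursors, from which the tRNAs are cut out and the mRNAs and rRNAs between them are released. Most of the released mRNAs and rRNAs are given short poly(A) tails. In the annotation (GRCm38) 12 mRNAs, both rRNAs and 14 tRNAs lie on the plus strand, and mt-Nd6 and 8 tRNAs lie on the minus strand.

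The genes sit end to end, and several of them share bases. That matters for the values, since a 75-base read can cover a gene and its neighbour and the kit used does not mark the strand of a read, so that reads from a gene and from its antisense partner cannot be told apart. Shown first are 3 tRNAs on which the tRNA results turn, with the anticodon in capitals, from the GENCODE M21 transcripts on GRCm38. They are mt-Ts1 (serine, minus strand, chrM:6870-6938), mt-Te (glutamate, minus strand, chrM:14071-14139) and mt-Tl1 (leucine, plus strand, chrM:2676-2750), read 5′ to 3′ in the sense of the tRNA.
mt-Ts1: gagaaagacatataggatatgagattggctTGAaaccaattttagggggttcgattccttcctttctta
mt-Te: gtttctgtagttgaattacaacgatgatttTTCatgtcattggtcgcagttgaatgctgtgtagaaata
mt-Tl1: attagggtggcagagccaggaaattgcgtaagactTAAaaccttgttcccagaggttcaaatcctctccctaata
The tRNA genes are 59 to 75 bases long, and 21 of 22 are shorter than a read.

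Shown next are mRNAs that overlap a neighbour, and the end of mt-Co1 that meets mt-Ts1. Among them are mt-Atp8, mt-Nd4l and mt-Nd6, whose shares of the mRNA pool did not overlap between the populations. The shares of mt-Nd3 and mt-Atp6 did not overlap either, but their sequences are not shown. The sequences are printed with the shared bases in capitals. mt-Atp8 (chrM:7766-7969, plus strand) shares its last 43 bases with mt-Atp6, and mt-Nd4l (chrM:9877-10173, plus strand) shares its last 7 bases with mt-Nd4. The last 90 bases of mt-Nd6 (chrM:13552-13641, minus strand) end in 14 bases that overlap mt-Nd5 on the other strand. The last 90 bases of mt-Co1 (chrM:6783-6872, plus strand) end in 3 bases that overlap mt-Ts1, again on the other strand.
mt-Atp8: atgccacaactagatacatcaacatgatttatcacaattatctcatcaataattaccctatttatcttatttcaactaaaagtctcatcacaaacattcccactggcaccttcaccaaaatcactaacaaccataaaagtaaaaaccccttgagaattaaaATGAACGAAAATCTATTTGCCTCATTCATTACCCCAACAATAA
mt-Nd4l: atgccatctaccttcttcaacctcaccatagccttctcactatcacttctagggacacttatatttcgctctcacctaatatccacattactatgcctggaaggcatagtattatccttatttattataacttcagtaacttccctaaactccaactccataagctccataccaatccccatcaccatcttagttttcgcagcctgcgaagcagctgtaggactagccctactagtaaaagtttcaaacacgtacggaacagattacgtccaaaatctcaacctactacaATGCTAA
mt-Nd6, last 90 bases: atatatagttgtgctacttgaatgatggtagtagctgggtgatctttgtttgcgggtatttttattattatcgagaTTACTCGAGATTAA
mt-Co1, last 90 bases: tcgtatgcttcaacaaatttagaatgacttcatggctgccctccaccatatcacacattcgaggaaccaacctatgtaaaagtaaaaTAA

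All 3 classes of mitochondrial RNA took a larger part of the CX3CR1- libraries. The rRNA genes took 44.8, 40.0 and 42.3% of the normalized total in CX3CR1- replicates 1 to 3, against 17.7, 16.5 and 15.0% in CX3CR1+. The mRNA genes took 10.1, 7.46 and 10.2% against 3.50, 2.92 and 3.08%. The tRNA genes took only 0.0342, 0.0267 and 0.0330% against 0.0119, 0.0101 and 0.00967%. In each class the lowest CX3CR1- library lay above the highest CX3CR1+ library, and the exact two-sided permutation p of each difference was 0.1, the smallest that 3 libraries against 3 can give. The 37 genes together reached from 47.5 to 54.9% in CX3CR1- and from 18.1 to 21.2% in CX3CR1+. With the rRNA genes left out of both the sum and the total, the share still ranged from 12.5 to 18.3% against 3.51 to 4.26%. Within the mitochondrial sum, rRNA took 80.5 to 84.2% in CX3CR1- and 82.9 to 84.9% in CX3CR1+, and these ranges overlapped.

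**Figure D1:**
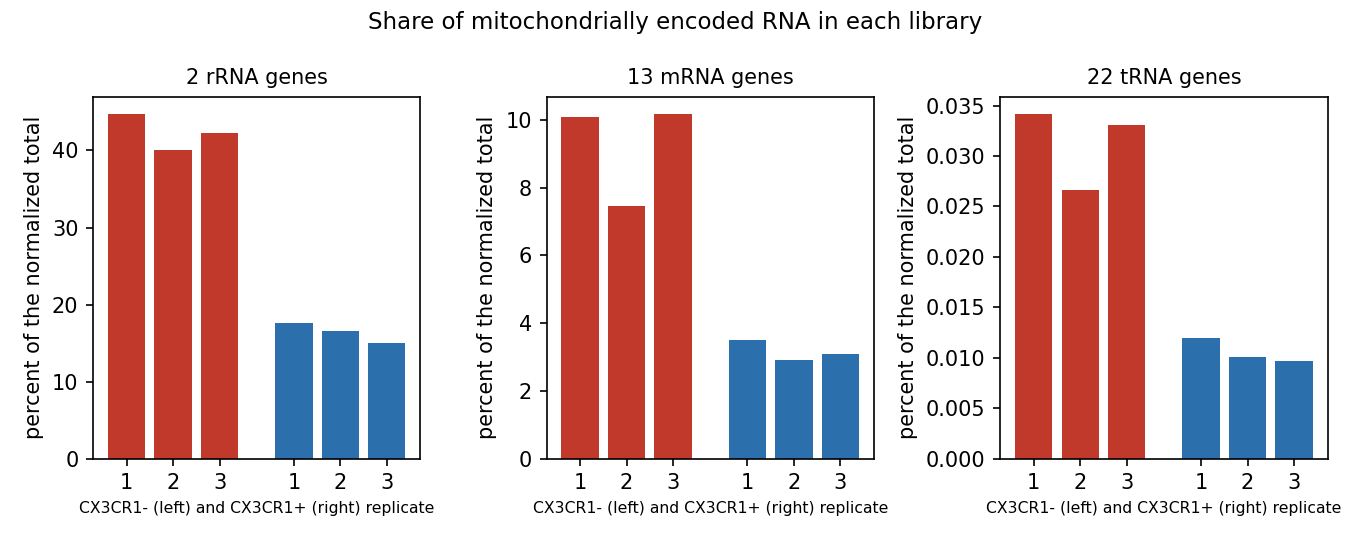
Bars give the percent of the normalized total that 2 rRNA, 13 mRNA and 22 tRNA genes of the mitochondrial genome took in each library, in 3 panels with axes that start at 0. CX3CR1- libraries (red) lie above CX3CR1+ libraries (blue) in each panel, and CX3CR1- replicate 2 is the lowest of its group in each.

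Both rRNAs were higher in CX3CR1- libraries by close to the same factor. mt-Rnr2, the RNA of the large mitochondrial ribosomal subunit, had normalized values of 3823617, 3215093 and 3192062 in CX3CR1- and of 939672, 950980 and 775738 in CX3CR1+. It was the gene with the highest mean of all 26110 in both populations. mt-Rnr1, the RNA of the small subunit, had 1749079, 1451280 and 1589745 against 499596, 407784 and 359365, and ranked 2 by its mean in CX3CR1- and 3 in CX3CR1+. For neither gene did the groups overlap. The log2 fold changes were 1.94 ± 0.13 (SE) for mt-Rnr2 and 1.93 ± 0.14 (SE) for mt-Rnr1 (limma, adjusted p = 6.74e-06 and 1.17e-05). Per length, mt-Rnr1 stood at 0.777 ± 0.0420 of mt-Rnr2 in CX3CR1- and at 0.786 ± 0.0867 in CX3CR1+ (SD, n = 3, exact permutation p = 0.8). The ranges of this ratio overlapped, from 0.748 to 0.825 against 0.710 to 0.881.

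All 13 mRNAs were called higher in CX3CR1- (limma, a change of 1 or more on the log2 scale with a Benjamini-Hochberg adjusted p no larger than 0.05 over all tested genes). Of the 17812 genes tested, 20.4% were called in either direction, 12.2% as higher and 8.15% as lower in CX3CR1-. The log2 fold changes of the mRNAs ran from 1.68 for mt-Nd3 to 2.35 for mt-Nd4l, with a median of 2.06, whereas the median of all tested genes was -0.0035. Their adjusted p ran from 6.59e-06 to 1.86e-04. For all 13 mRNAs every CX3CR1- library lay above every CX3CR1+ library, an order that 20.3% of all tested genes showed. CX3CR1- replicate 2 was the lowest of its group for 13 of 13 mRNAs, and CX3CR1+ replicate 1 was the highest of its group for 11.

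**Figure D2:**
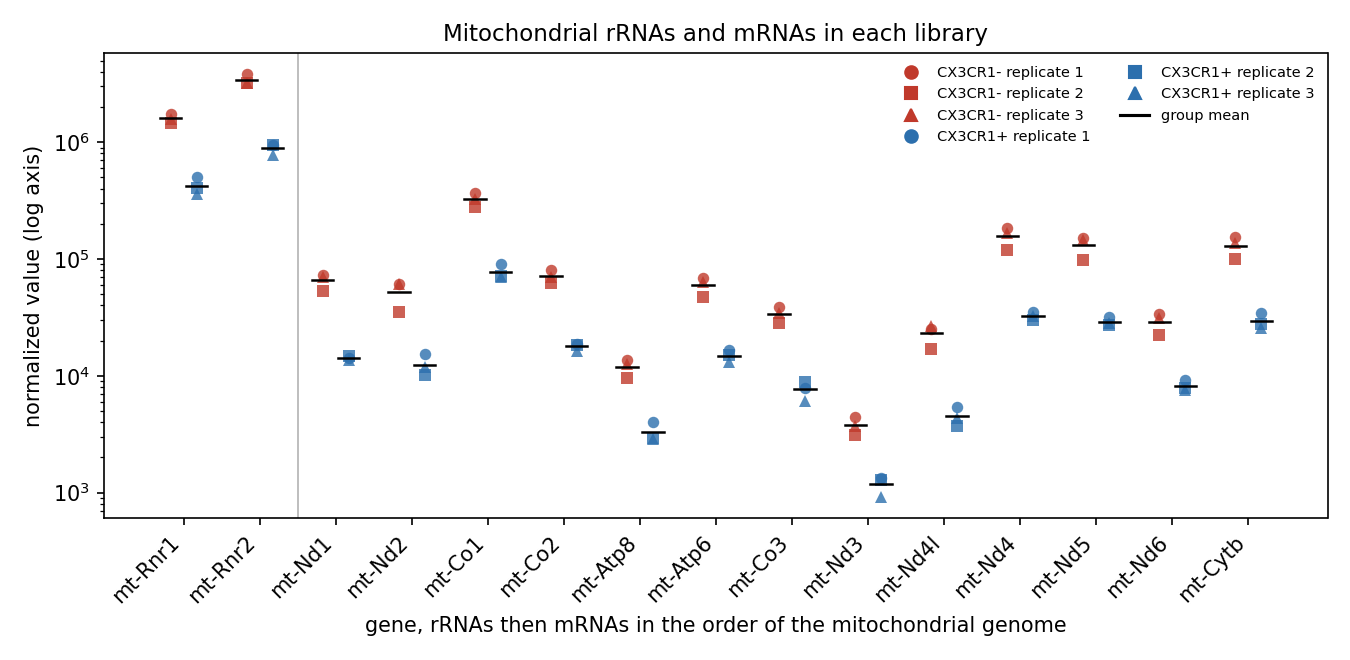
Each point is the normalized value of a gene in 1 library on a log axis, with the group means as lines, for 2 rRNAs and 13 mRNAs. The red points of the CX3CR1- libraries lie above the blue points of the CX3CR1+ libraries for every gene shown.

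Complex I, NADH dehydrogenase, passes electrons from NADH into the respiratory chain, and 7 of its subunits are mitochondrially encoded. mt-Nd4 had 183166, 118187 and 166091 in CX3CR1- and 34950, 30195 and 32798 in CX3CR1+ (log2 fold change 2.23 ± 0.16 SE). mt-Nd5 had 151001, 97406 and 146063 against 31631, 27268 and 28438 (2.15 ± 0.17). mt-Nd1 had 72887, 52739 and 70706 against 14320, 14851 and 13595 (2.18 ± 0.14). In these 3 genes CX3CR1- replicate 2 stood apart from replicates 1 and 3, but still lay more than 3 times above any CX3CR1+ library. mt-Nd2 had 60742, 35401 and 61537 against 15221, 10052 and 11866, and its fold change had the largest error among the mRNAs (2.06 ± 0.23). mt-Nd4l, with 25315, 16913 and 26893 against 5381, 3750 and 4313, had the largest fold change of the mRNAs (2.35 ± 0.20). mt-Nd3 had 4450, 3115 and 3691 against 1327, 1289 and 914, which made it the lowest of the mRNAs in level and in fold change (1.68 ± 0.20). mt-Nd6, the only mRNA of the minus strand, had 33552, 22152 and 31305 against 9143, 7825 and 7483 (1.81 ± 0.17). Summed over these 7 genes, complex I reached 345913 to 531113 in CX3CR1- and 95230 to 111973 in CX3CR1+.

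Complex III hands electrons on to cytochrome c, and mt-Cytb, its cytochrome b, is its 1 mitochondrially encoded subunit. mt-Cytb had 155261, 99652 and 136280 in CX3CR1- and 34435, 27516 and 25710 in CX3CR1+ (2.15 ± 0.18). Complex IV, cytochrome c oxidase, reduces oxygen to water, and its 3 catalytic core subunits come from mt-Co1, mt-Co2 and mt-Co3. mt-Co1, the most abundant of these mRNAs in every library, had 367536, 276032 and 328008 against 91407, 72061 and 70081 (2.06 ± 0.15). mt-Co2 had 80449, 62760 and 70345 against 18845, 18381 and 16252 (1.99 ± 0.13). mt-Co3 had 39150, 28366 and 34451 against 7846, 8926 and 6118 (2.16 ± 0.17). None of these 4 genes had overlapping groups, and the lowest CX3CR1- library was replicate 2 each time.

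Complex V is the ATP synthase, of which mt-Atp6 and mt-Atp8 encode membrane subunits from a shared transcript. mt-Atp6 had 68628, 47437 and 63282 in CX3CR1- and 16547, 15046 and 13126 in CX3CR1+ (1.99 ± 0.16). mt-Atp8 had 13694, 9642 and 12610 against 4019, 2914 and 2890 (1.87 ± 0.18). Per length, mt-Atp8 stood at 0.670 ± 0.00745 of mt-Atp6 in CX3CR1- and at 0.731 ± 0.0823 in CX3CR1+ (SD, n = 3, exact permutation p = 0.4), so the ratio of this pair was not separable between the populations. The same holds for mt-Nd4l and mt-Nd4, which also overlap on 1 strand, since mt-Nd4l stood at 0.685 ± 0.0581 of mt-Nd4 per length against 0.634 ± 0.0720 (SD, n = 3, exact permutation p = 0.4).

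Per kilobase, the order of the mRNA levels was headed by mt-Co1 in both populations, at 209617 ± 29704 in CX3CR1- and 50388 ± 7626 in CX3CR1+ (SD, n = 3). In CX3CR1- the next were mt-Cytb (113984 ± 24709), mt-Nd4 (113073 ± 24446) and mt-Co2 (104071 ± 12974), which lay within their spread of each other. In CX3CR1+ the same 3 genes followed in the order mt-Co2 (26062 ± 2021), mt-Cytb (25542 ± 4026) and mt-Nd4 (23692 ± 1728), again within their spread. The lowest level per kilobase was that of mt-Nd3 in both, at 10781 ± 1924 and 3381 ± 657, below the lowest library of every other mRNA. The levels of mt-Nd5, mt-Nd1, mt-Atp8 and mt-Nd6 in CX3CR1-, between 72089 ± 16239 and 55882 ± 11635, lay within the spread of their neighbours. That spread is between libraries, and CX3CR1- replicate 2 was the lowest of its group for all 13 mRNAs. It therefore does not compare genes within a library, and their order there was not tested.

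To compare the mRNAs with each other whatever the scaling between libraries, each was also taken as a share of the sum of the 13. mt-Co1 made up 29.3, 31.7 and 28.5% of that pool in CX3CR1- and 32.1, 30.0 and 30.0% in CX3CR1+, so its ranges overlapped. Complex I made up 39.8 to 44.0% against 39.3 to 42.6%, and complex IV 37.6 to 42.2% against 39.6 to 41.4%, both overlapping. For 8 of 13 mRNAs the shares of the groups overlapped, and for 5 they did not. The share of mt-Nd6 was 2.67, 2.55 and 2.72% in CX3CR1- against 3.21, 3.26 and 3.20% in CX3CR1+. That of mt-Nd3 was 0.354, 0.358 and 0.321% against 0.466, 0.537 and 0.391%. That of mt-Atp8 was 1.09, 1.11 and 1.10% against 1.41, 1.21 and 1.24%. These 3 were lower in every CX3CR1- library, as was mt-Atp6, with 5.46, 5.45 and 5.497% against 5.80, 6.27 and 5.62%. Gm10925, a copy of mt-Atp6 on a nuclear chromosome, stood at 6.97 to 17.3% of mt-Atp6 in CX3CR1- and 8.18 to 22.3% in CX3CR1+. The mean share of mt-Atp6 in CX3CR1- was 0.928 of that in CX3CR1+, so its separation depends on where these reads belong. mt-Nd4l alone was higher in every CX3CR1- library, with 2.02, 1.94 and 2.34% against 1.89, 1.56 and 1.85%. The ratios of the mean shares lay between 0.741 for mt-Nd3 and 1.19 for mt-Nd4l. These genes share 98.1 and 98.9% of their stretches of 31 bases with nuclear transcripts. Their nuclear copies are not listed, so reads assigned to those copies are not seen here. No share passed the exact permutation test, whose p of 0.1 for these 5 genes is the smallest it can give and became 0.26 after Benjamini-Hochberg adjustment over the 13. Without CX3CR1- replicate 2, 8 of the 13 shares did not overlap, but groups separate more easily with fewer libraries. The exact permutation p of the mt-Nd3 share was 0.2 there.

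**Figure D3:**
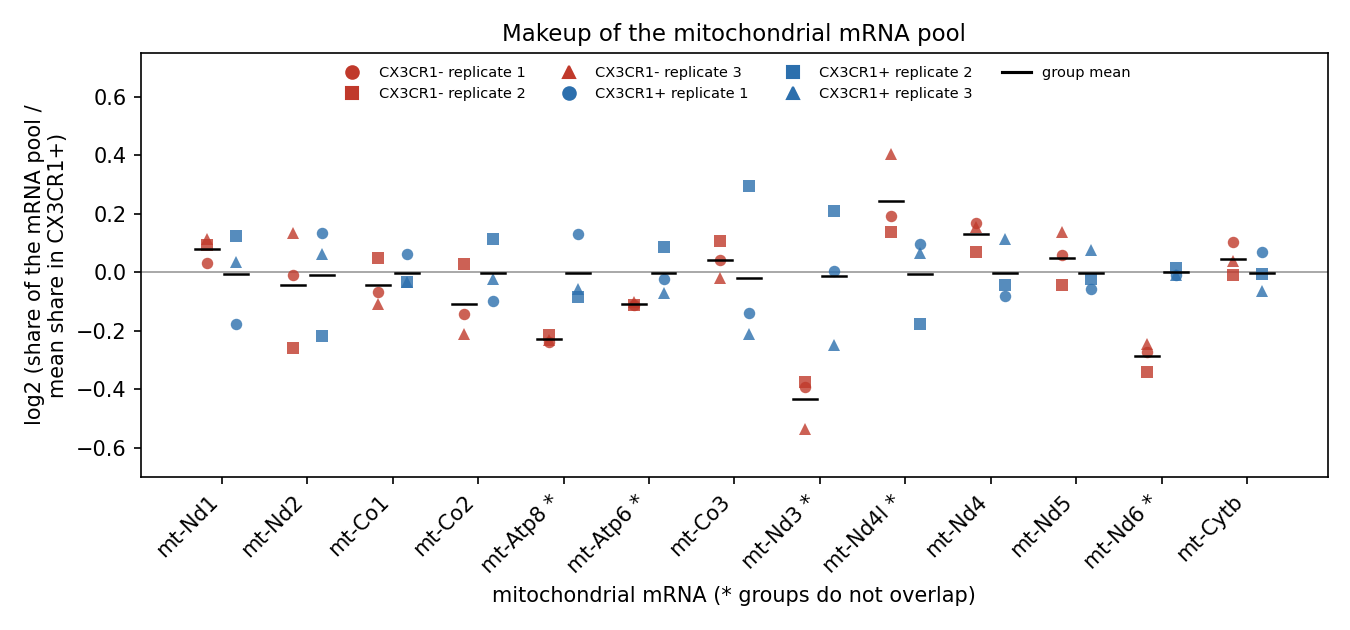
Each point is the log2 of an mRNA's share of the mitochondrial mRNA pool in 1 library over its mean share in the CX3CR1+ libraries, with group means as lines. The genes marked with an asterisk are the 5 whose groups do not overlap, of which mt-Nd3, mt-Nd6, mt-Atp8 and mt-Atp6 lie lower and mt-Nd4l higher in CX3CR1-. The shares of mt-Atp6, mt-Nd3 and mt-Nd4l are less certain, since most of their sequence is also found in nuclear copies.

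The minus-strand mRNA mt-Nd6 was also set against the median of the 12 plus-strand mRNAs in the same library. The log2 ratio was -1.08, -1.18 and -1.09 in CX3CR1- and -0.80, -0.93 and -0.84 in CX3CR1+. All 3 CX3CR1- libraries lay below all CX3CR1+ libraries, by 0.26 on average (exact two-sided permutation p = 0.1, the smallest possible). Against the sum of the plus-strand mRNAs the difference was -0.29, with the same p. Since strand was not recorded, reads of mt-Nd6 and reads from the other strand of the same bases cannot be told apart.

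The tRNAs gave far fewer reads than the other classes, and a kit that selects poly(A) RNA is not made to capture them. Of 22 tRNAs, 15 passed the filter of a mean value of 10 across all libraries and were tested. Of these, 6 were called higher in CX3CR1- and 0 lower, where 12.2% of all tested genes were called higher. Of the 15, 7 had a CX3CR1+ mean under 10 (mt-Tf, mt-Ti, mt-Tq, mt-Tm, mt-Ta, mt-Th and mt-Tl2) and passed the filter only through the group where they are high, so the counts over the 15 rest in part on that filter. Without a filter all 22 were tested, 5 were called higher and 0 lower, where 2484 of all 26110 genes were called higher. The log2 fold changes of the 22 lay above 0, the lowest at 0.56. For 16 of all 22 tRNAs, and for 12 of the 15 tested, every CX3CR1- library lay above every CX3CR1+ library. Of all tested genes, 20.3% showed this order. CX3CR1- replicate 2 was the lowest of its group for 21 of 22 tRNAs. Without this library 17 tRNAs were tested and 10 called, in place of 15 and 6. Over all genes, 2263 of 17639 were then called higher, in place of 2177 of 17812.

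mt-Ts1, the tRNA for serine, made up most of the tRNA signal. It had 3044, 2611 and 2423 in CX3CR1- and 647, 637 and 480 in CX3CR1+, with no overlap (log2 fold change 2.20 ± 0.18 SE, limma adjusted p = 1.96e-05). It took 64.9 to 84.0% of the tRNA sum in CX3CR1- and 65.6 to 76.6% in CX3CR1+, and stood at 0.739 to 0.946% of the value of its overlapping neighbour mt-Co1 against 0.685 to 0.883%. mt-Te, the tRNA for glutamate that lies next to mt-Nd6 on the minus strand, was the next most abundant, with 598, 179 and 395 against 103, 79.6 and 65.2 (2.09 ± 0.40, adjusted p = 0.00381). Its CX3CR1- libraries differed by more than 3 times among themselves, but the lowest still lay above the CX3CR1+ libraries. mt-Tl1, a tRNA for leucine between mt-Rnr2 and mt-Nd1, had 138, 69.7 and 213 against 38.9, 26.2 and 38.2 (1.88 ± 0.41, adjusted p = 0.00812).

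The other 3 called tRNAs rested on fewer reads. mt-Tm, the tRNA for methionine, had 41.7, 37.6 and 145 in CX3CR1- against 12.95, 3.28 and 5.67 in CX3CR1+, and had the largest fold change of the tested tRNAs (3.08 ± 0.64, limma adjusted p = 0.00605). Its CX3CR1+ mean of 7.30 lies under the filter, and without a filter its adjusted p was 0.00626. Its CX3CR1- mean was raised by replicate 3, with the other two close together. mt-Tc, for cysteine, had 58.4, 34.0 and 73.8 against 16.7, 7.38 and 16.997 (1.96 ± 0.48, adjusted p = 0.0138). mt-Tq, for glutamine, had 27.1, 17.9 and 63.8 against 9.25, 5.74 and 11.3 (1.78 ± 0.58, adjusted p = 0.0479), close to the threshold. Its CX3CR1+ mean of 8.77 lies under the filter, and without a filter it was not called (limma adjusted p = 0.0542). Nor was it called with a pseudocount of 10, without a variance trend, scaled to all genes or under quantile normalization. The limma adjusted p then ran from 0.0511 to 0.122. mt-Tq was no longer called without any single one of CX3CR1- replicates 1 and 3 or CX3CR1+ replicates 1, 2 and 3, with adjusted p between 0.0774 and 0.157. mt-Tc was no longer called without CX3CR1- replicate 3 (adjusted p = 0.0521) or CX3CR1+ replicate 2 (adjusted p = 0.0552).

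The 9 tested tRNAs that were not called, mt-Tf, mt-Ti, mt-Ta, mt-Tn, mt-Ty, mt-Tr, mt-Th, mt-Tl2 and mt-Tp, had log2 fold changes of 0.91 to 1.77 with SEs of 0.46 to 0.89 and limma adjusted p of 0.0589 to 0.300. No difference from 0 could be called for them at this depth. For 6 of the 9 every CX3CR1- library lay above every CX3CR1+ library, an order that 20.3% of all tested genes showed. The 7 tRNAs under the filter, mt-Tv, mt-Tw, mt-Td, mt-Tk, mt-Tg, mt-Ts2 and mt-Tt, had 0 to 28 reads per library. All 7 had a higher mean in CX3CR1-, by 1.86 to 10.2 times. For 4 of them the groups did not overlap, and the 20.3% above covers only genes that passed the filter. mt-Tg, for glycine, had 7.31, 3.58 and 7.98 in CX3CR1- against 1.85, 0 and 0 in CX3CR1+. mt-Tt, for threonine, had the lowest mean over all libraries, with 4.17, 0 and 2.99 against 0.463, 0.820 and 1.42, all of which lie near the value of 3 reads or under it. By strand, 4 of 8 tested minus-strand tRNAs and 2 of 7 tested plus-strand tRNAs were called, and the difference between strands was not tested. The 7 tRNAs under the filter all lie on the plus strand. Since strand was not recorded, reads of a tRNA and reads from the other strand of the same bases cannot be told apart.

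**Figure D4:**
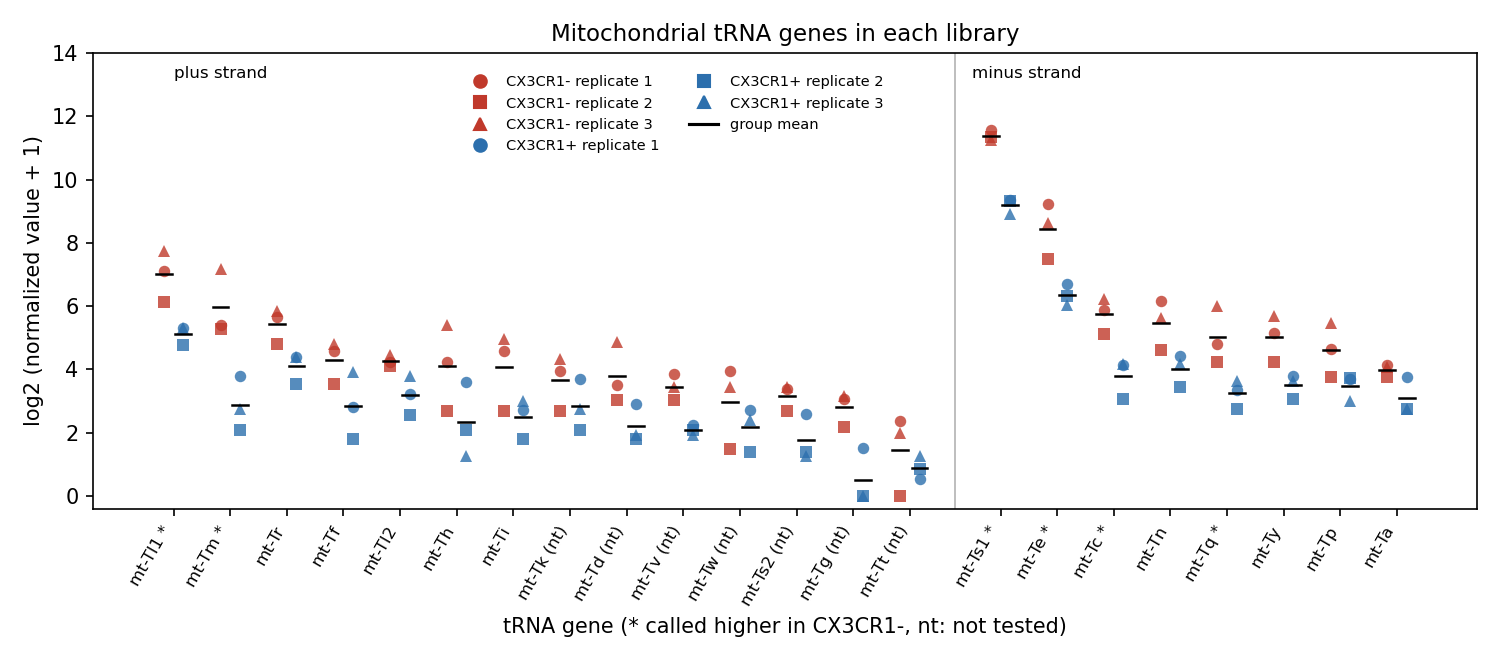
Each point is the log2 of the normalized value + 1 of a tRNA gene in 1 library, with group means as lines, for 14 tRNAs of the plus strand and 8 of the minus strand, each set ordered by mean. Asterisks mark the 6 tRNAs called higher in CX3CR1-, and nt marks the 7 that were not tested. mt-Ts1 and mt-Te lie above the other minus-strand tRNAs in both populations.

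The classes were also set against each other within libraries. The log2 ratio of the rRNA sum to the mRNA sum was 2.15, 2.42 and 2.05 in CX3CR1- and 2.34, 2.501 and 2.28 in CX3CR1+ (difference -0.16, exact two-sided permutation p = 0.3). The difference was -0.27 without CX3CR1- replicate 2, -0.086 without CX3CR1- replicate 3 and -0.099 without CX3CR1+ replicate 2. The log2 ratio of the tRNA sum to the mRNA sum was -8.20, -8.13 and -8.27 against -8.20, -8.17 and -8.32 (difference 0.03, exact permutation p = 0.7). The ranges of both ratios overlapped. Without mt-Ts1 and mt-Te, a choice made after the values had been seen, the tRNA ratio was -11.00, -11.41 and -10.29 against -10.33, -11.03 and -10.29 (exact permutation p = 0.6).

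The measured differences depend on what the libraries are scaled to, since the mitochondrial genes themselves took a large part of the CX3CR1- totals. When values were divided by the total of all genes, the median log2 fold change of all tested genes moved to -0.57, and that of the 13 mRNAs to 1.498, which is 2.07 above it. When they were divided by the total of nuclear genes, the medians were 0.17 and 2.23. Dividing a library by a total shifts all its genes alike, so the distance between both medians is kept by construction. Under quantile normalization they were -0.16 and 1.80, 1.96 apart. All 13 mRNAs were called under each of these scalings. For the rRNAs the fold changes were 1.36 to 1.38, 2.10 to 2.11 and, under quantile normalization, 0.00 for mt-Rnr2 and 1.01 for mt-Rnr1. Quantile normalization gives the top gene of every library the same value, and mt-Rnr2 was that gene.

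Parts of the mitochondrial genome also exist as copies in the nuclear chromosomes, and reads from such a copy cannot be assigned with certainty. In GENCODE M21, 23 nuclear genes share at least 1 stretch of 31 bases with a mitochondrially encoded gene, of which 16 are listed. The 5 that share the most are Gm28439, Gm28437, Gm13340, Gm28661 and Gm10925, copies of mt-Nd4, mt-Co3, mt-Co1, mt-Co2 and mt-Atp6, and 4 of these and Gm29216, a further copy of mt-Co1, lie together on chromosome 1 between 24611535 and 24616197 (GRCm38). Gm29216 had the highest value of these copies, with 57759, 46368 and 46034 in CX3CR1- and 14362, 11820 and 9652 in CX3CR1+. That is 14.03 to 16.8% of mt-Co1 in CX3CR1- and 13.8 to 16.4% in CX3CR1+, which overlap. Gm10925 had 5527, 8217 and 4410 against 1354, 1623 and 2921, or 6.97 to 17.3% of mt-Atp6 against 8.18 to 22.3%. Gm28661 had 600, 200 and 485 against 93.9, 39.4 and 329, and Gm28437 had 82.4, 129 and 13.96 against 7.86, 16.4 and 7.08. Gm13340, on chromosome 2, had 249, 181 and 191 against 63.4, 39.4 and 51.0. Gm28439 was listed at 0 in 5 libraries and at 1546 in CX3CR1+ replicate 1. The values of mt-Nd4, mt-Co1, mt-Co2, mt-Co3 and mt-Atp6 are uncertain by the reads assigned to these copies. Reads of a copy that were assigned to the mitochondrial gene are not seen, so the copies do not size the whole uncertainty. mt-Nd3 and mt-Nd4l share 98.1 and 98.9% of their stretches of 31 bases with nuclear transcripts. Their copies, Gm28438 and Gm10222, are not among the listed genes, so the uncertainty of these values cannot be sized here.

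Sharing with the nucleus did not separate the mRNAs by fold change. The 7 mRNAs with at least 62.8% of their 31-base stretches shared (mt-Co1, mt-Co2, mt-Atp6, mt-Co3, mt-Nd3, mt-Nd4l and mt-Nd4) had log2 fold changes of 1.68 to 2.35 with a median of 2.06. The 6 with at most 16.8% shared (mt-Nd1, mt-Nd2, mt-Atp8, mt-Nd5, mt-Nd6 and mt-Cytb) had 1.81 to 2.18 with a median of 2.10. mt-Nd1 shares none. With the copies that share most of their length added to the mitochondrial sum, its share of the normalized total became 48.0 to 55.4% in CX3CR1- and 18.3 to 21.4% in CX3CR1+.

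The nuclear genes that complete the same complexes moved less. Of 85 listed nuclear subunits of complexes I to V, 83 were tested, 8 were called higher (9.64%, against 12.2% of all tested genes) and 0 lower, by limma, and their median log2 fold change was 0.49. At an unadjusted p under 0.05 in the limma fit, 33 were higher and 0 lower. The share of all tested genes at that cutoff is not given here. The unadjusted counts, here and for the lists below, are therefore not compared with all genes. The medians by complex were 0.41 for complex I, 0.45 for complex II, which has no mitochondrially encoded subunit, 0.57 for complex III, 0.48 for complex IV and 0.54 for complex V. The called genes of complex I were Ndufv1 (1.40 ± 0.34 SE), Ndufa6 (1.25 ± 0.29), Ndufa8 (1.24 ± 0.29) and, named after its values were seen, Ndufa11 (1.02 ± 0.29). In complex III Uqcrfs1, the Rieske iron-sulfur protein, was called (1.17 ± 0.27), and in complex V Atp5g3, a subunit of the rotor ring, was called (1.23 ± 0.20). In complex IV Cox7a1 and Cox8b were called (3.09 ± 0.63 and 2.61 ± 0.72), isoforms known from heart and skeletal muscle. Both had low values, of 98.8, 47.3 and 19.8 against 5.75, 4.21 and 3.63 for Cox7a1 and of 11.5, 21.5 and 31.9 against 1.85, 4.92 and 1.42 for Cox8b.

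The difference between both genomes was tested as a ratio within libraries. For complex I the log2 ratio of the mitochondrially encoded sum to the nuclear sum was 6.49, 6.06 and 6.46 in CX3CR1- and 4.65, 4.34 and 4.80 in CX3CR1+, a difference of 1.74. For complex III it was 6.16, 5.73 and 6.09 against 4.65, 4.21 and 4.48, a difference of 1.55. For complex IV it was 6.32, 6.11 and 6.40 against 4.70, 4.39 and 4.54, a difference of 1.73. For complex V it was 2.83, 2.51 and 2.96 against 1.49, 1.32 and 1.40, a difference of 1.37. In each complex every CX3CR1- library lay above every CX3CR1+ library, and each exact two-sided permutation p was 0.1, the smallest possible. Over the 4 complexes together the ratio was 3.06 times higher in CX3CR1-.

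Genes that copy, transcribe and process the mitochondrial genome had no call toward higher levels in CX3CR1-. Of 10 tested genes of mitochondrial transcription 0 were called by limma (1 higher and 0 lower at an unadjusted p under 0.05), with a median log2 fold change of -0.21. Among them Tfam, the factor that packages mitochondrial DNA and starts its transcription, had 102, 35.5 and 61.3 in CX3CR1- and 16.6, 29.1 and 57.6 in CX3CR1+ (0.97 ± 0.52 SE, limma adjusted p = 0.213), with overlapping groups. Polrmt, the mitochondrial RNA polymerase, had 8.20, 3.17 and 53.8 against 13.18, 22.03 and 9.05 (-0.21 ± 0.88, adjusted p = 0.888). Both were named after their values were seen, for their role. Of 32 tested genes of RNA processing and stability 0 were called (1 higher and 3 lower at an unadjusted p under 0.05, median -0.11). Of 15 genes of mitochondrial DNA replication and maintenance 4 were called lower, or 26.7% against 8.15% of all tested genes, and 0 higher, also at an unadjusted p under 0.05. These were Slc25a33 (-2.59 ± 0.31) and Slc25a36 (-1.02 ± 0.20), carriers of pyrimidine nucleotides, Tk2 (-1.48 ± 0.42), the mitochondrial thymidine kinase, and, named after its values were seen, the exonuclease Mgme1 (-1.26 ± 0.41).

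The next lists had shares of calls near or under those of all tested genes (12.2% higher and 8.15% lower). Of 83 genes of the mitochondrial ribosome only Mrpl43 was called (1.30 ± 0.31 SE, higher in CX3CR1-), with a median of 0.19 and with 8 higher and 2 lower at an unadjusted p under 0.05. Of 20 tested mitochondrial aminoacyl-tRNA synthetases, which load the tRNAs, only Mars2 was called (higher, 1.42 ± 0.42, median 0.29, with 3 higher and 2 lower unadjusted). Of 12 translation factors only Mrrf, the ribosome recycling factor, was called (lower, -1.41 ± 0.34, median 0.29, with 2 higher and 1 lower unadjusted), and of 37 assembly factors only Cox19 (higher, 1.93 ± 0.52, median -0.01, with 4 higher and 0 lower unadjusted). Among 19 genes used as a measure of mitochondrial mass, 2 were called higher, or 10.5%, close to the share of all tested genes, and 5 were higher and 3 lower at an unadjusted p under 0.05. The called genes were Cs, the citrate synthase of the citric acid cycle, with 1527, 1129 and 851 against 354, 337 and 306 (1.77 ± 0.23, limma adjusted p = 3.16e-04), and Slc25a5, an ADP/ATP carrier (1.35 ± 0.17, adjusted p = 3.34e-04). The median of that list was 0.11.

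Among 13 tested regulators of mitochondrial biogenesis 2 were called lower, Esrrg (-1.39 ± 0.33 SE), a nuclear receptor, and Pprc1 (-1.10 ± 0.28), a coactivator, with a median of -0.39. Of 11 mitophagy genes only Sqstm1, the receptor p62, was called (lower, -1.22 ± 0.21, median -0.22). Of 12 genes of the mitochondrial stress response, Phgdh, of serine synthesis, and the transcription factor Atf5 were called higher (3.40 ± 0.80 and 1.69 ± 0.36), and Gdf15, a secreted stress cytokine, was called lower (-3.34 ± 0.44). Over all 343 tested nuclear genes of these lists, 15 were called higher (4.37%, against 12.2% of all tested genes) and 9 lower (2.62%, against 8.15%), with a median of 0.20. The count of higher calls was 24 when libraries were scaled to the nuclear total and 10 without CX3CR1+ replicate 3. Over all tested genes these settings gave 2521 and 1724 higher calls, in place of 2177. The count of lower calls was 5 without CX3CR1+ replicate 1, 5 without replicate 2 and 4 without replicate 3. Lower calls over all tested genes fell as well, from 1451 to 1148, 1011 and 1066.

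**Figure D5:**
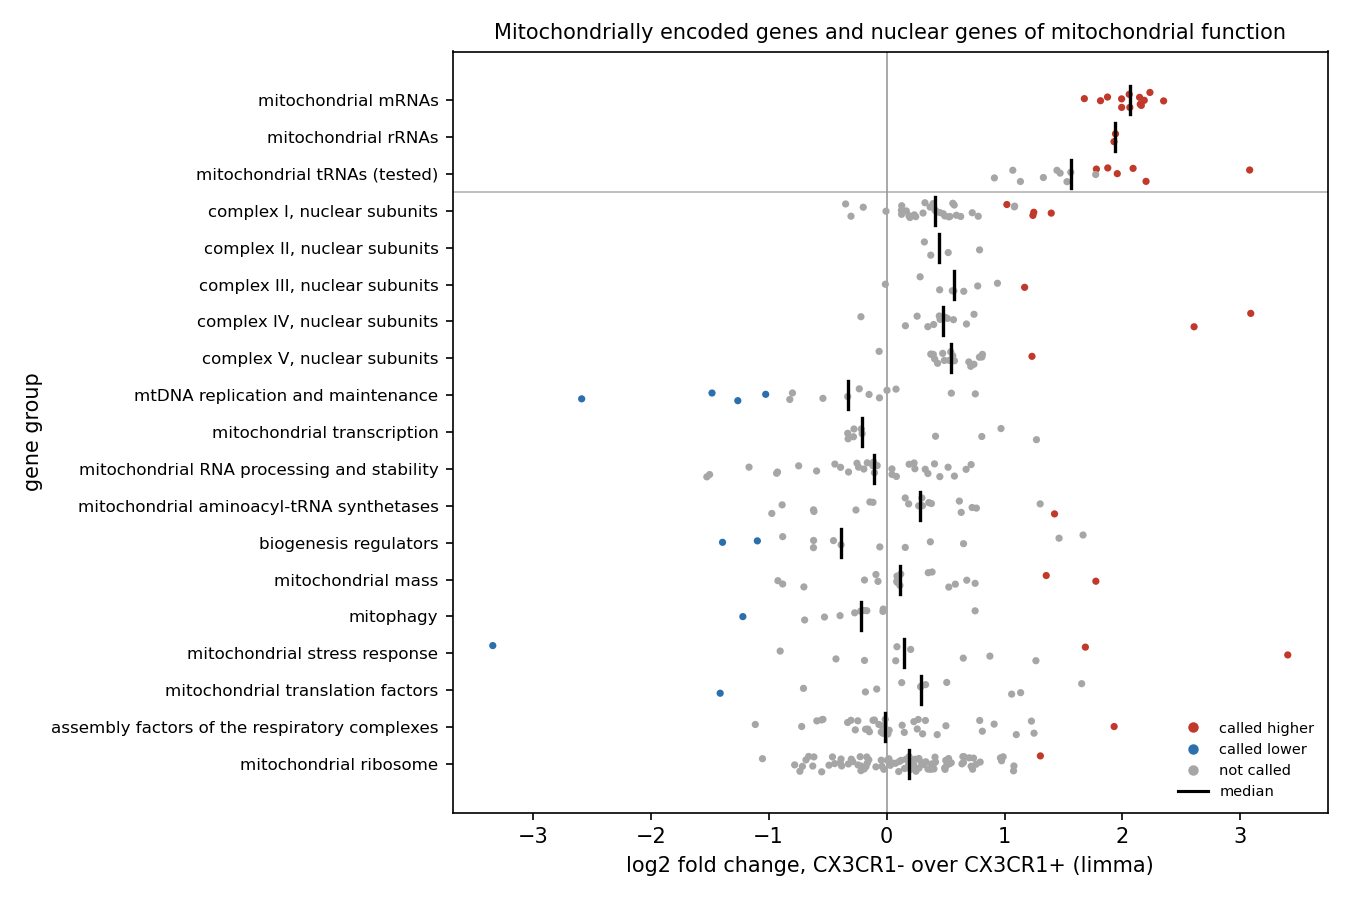
Each point is the log2 fold change of a tested gene, CX3CR1- over CX3CR1+, by gene group, with the group median as a line and the calls in colour. The mitochondrially encoded mRNAs and rRNAs lie between 1.68 and 2.35, and the medians of the nuclear groups lie between -0.39 and 0.57.

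Several marker lists of other cells moved with the mitochondrial genes, and their part in these results was not tested. All 10 epithelial markers were called higher in CX3CR1-, by limma. Their summed value was 31069, 27272 and 17127 in CX3CR1- and 56.2, 29.9 and 47.5 in CX3CR1+, led by Fabp2, a fatty acid binding protein of enterocytes, with 21161, 21000 and 12559 against 9.25, 0.820 and 2.83. Epithelial markers at 0 in some CX3CR1+ libraries were 5 of 10, and 0 of 10 were at 0 in all. All 6 fibroblast markers were called higher, with sums of 4117 to 12168 against 181 to 316, led by Col1a2, Lum and Col1a1, genes of the extracellular matrix. All 5 B and plasma cell markers were called higher, with sums of 1388 to 3586 against 22.2 to 30.2, led by Jchain. Among the CX3CR1- libraries the epithelial sum was lowest in replicate 3 and the fibroblast sum lowest in replicate 2, while the mitochondrial share was lowest in replicate 2.

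The dendritic cell list, led by Cd209a, Clec9a and Itgae, summed to 3671 to 4358 in CX3CR1- against 331 to 395 in CX3CR1+. The macrophage list, led by Adgre1, C1qa and Csf1r, summed to 5256 to 7072 against 31444 to 35587. Of 4 endothelial markers 3 were called higher (Lyve1, Cdh5 and Kdr, sums of 1081 to 1500 against 597 to 778), and of 6 markers of neurons, glia and pacemaker cells 2 were (Kit and Sox10, sums of 275 to 913 against 124 to 146). Of 3 tested T cell markers Cd8a was called higher and Cd4 lower (sums of 220 to 299 against 575 to 668). Of 6 smooth muscle markers 0 were called, and 0 had an unadjusted p under 0.05 in the limma fit, with sums of 918 to 2675 against 1954 to 2745 that overlap. As a sign of how much ribosomal RNA was carried over, 5 nuclear rRNA-like transcripts summed to 161668 to 217068 against 113870 to 162544, also overlapping, and 1 of them, Gm26870, was called higher.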

How the data were processed

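RNA of sorted cells was sequenced by the authors as 75 bp single reads from TruSeq v2 libraries, which do not mark strand. Per the labels and methods, the reads were pseudoaligned with Kallisto to mm10 (GENCODE M16), summed per gene after tximport and normalized with DESeq2. The deposited signal is thus normalized estimated counts, with 1 column per library, and no column without a sample. It holds no fold changes or p-values of the authors. All 37 members were whole multiples (tolerance 0.01) of the smallest step of their library, which gave the approximate reads, but only 42.6 to 44.7% of all values were, so no count test was run.

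Genes whose mean reached 10 (17812) entered a two-sided limma fit with a variance trend (limma 3.58.1, R 4.3.3) of the log2 of value + 1, and p-values were adjusted over them by Benjamini-Hochberg. Fold changes are on that scale, which understates those of low genes. A call required a log2 fold change of 1 or more in size and an adjusted p no larger than 0.05. The fit was tested on simulated data. Single values had an exact permutation test over libraries (scipy 1.17.1). SDs are over 3 libraries. Depth limits the tRNAs most. Positions, overlaps and 31-base stretches came from GENCODE M21 on GRCm38. Plots used matplotlib 3.10.9.

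Named genes were all mt- genes, Cx3cr1, up to 3 called genes per list and direction with the smallest p, and the 5 nuclear genes sharing most 31-base stretches. The members and lists were chosen with earlier results of these data known. Alternatives were pseudocounts of 0.5 and 10, no filter, a mean of at least 50, 4 other scalings, no variance trend, library weights and leaving out each library.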

Additional observations from a re-analysis of the deposited data

How the results depend on the processing

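No paired analysis was made, because the labels give no pairing. The sample numbers in the titles run in neighbours of opposite populations, but no source states that neighbours share a pool or a day. The 13 mRNAs were called under each of 16 alternatives to the fit. Of 466 values of single members under alternatives, 443 kept direction and call, 13 lost the call, 10 gained it, and 0 changed sign. Under quantile normalization 1 of 2 rRNAs was called. With a mean of at least 50, 3 tRNAs were tested and all 3 were called higher, as were 1232 of all 10208 genes tested there. Leaving out 1 library gave 4 to 10 called tRNAs (10 of 17 tested without CX3CR1- replicate 2). It gave 5 to 8 mRNA shares that did not overlap, which is easier to reach with fewer libraries. Lower calls among the nuclear genes of mitochondrial function were then 4 to 10 (9 with all libraries, 5 without CX3CR1+ replicate 1 or 2, 4 without replicate 3). Over all tested genes they went from 1451 to 1148, 1011 and 1066 without CX3CR1+ replicates 1, 2 and 3. Divided by the nuclear total, 24 of the nuclear genes of mitochondrial function were called higher, not 15, and 2521 of all tested genes, not 2177. The difference in the log2 tRNA to mRNA ratio, 0.03, ranged from -0.014 to 0.063 without 1 library, was -0.40 for class medians and, chosen after seeing the data, -0.35 without mt-Ts1 and mt-Te. Differences in pool share changed sign without CX3CR1+ replicate 1 for mt-Nd1 (range over left-out libraries -0.00017 to 0.58 percentage points), without CX3CR1- replicate 2 or CX3CR1+ replicate 1 for mt-Nd2 (-0.46 to 0.22) and without CX3CR1+ replicate 1 or 3 for mt-Co3 (-0.11 to 0.44). The cause was not tested. Depth limits the tRNAs: the 7 that were not tested had at most 28 reads in a library, and the tested mt-Tf, mt-Ta and mt-Tl2 at most 27.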
